A study of Chlamydomonas reinhardtii with 20 samples.

Results

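Biliverdin (BV) was fed to a heme oxygenase mutant of the green alga Chlamydomonas reinhardtii, and its transcripts were compared with those of the same mutant without BV. The comparison rests on 4 of the 20 RNA-seq libraries of the series, chosen by their labels alone. They are 2 libraries of hmox1 with 0.1 mM BV and 2 libraries of hmox1 without BV, all after 4 h of white light. Other libraries are used here as a backdrop. Of these, 4 came from the wild type 4A+ with and without BV at 4 h, and 12 from ho1C1 and ho1C2, the complemented lines of hmox1. These 12 had no BV and were taken from dark cultures and after light for 0.5 h or 4 h. Every culture was grown heterotrophically in the dark on acetate medium holding 0.5% methanol, also where no BV was added. The light was white, at 150 µmol photons per square metre and second. The treatment protocol names 30 minutes of light while the labels of these 4 libraries give 4 h, which is followed here. No source used here gives the lesion in hmox1, and the mutant is a single strain.

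Heme oxygenase opens the ring of heme and releases iron, carbon monoxide and the linear tetrapyrrole BV. In plants and algae it works in the plastid, and a ferredoxin-dependent reductase turns BV into further bilins such as phycocyanobilin. In land plants such a bilin is the chromophore of phytochrome. Chlamydomonas has the pathway but no phytochrome, and its bilins have been studied as signals between plastid and nucleus while dark-grown cells adjust to light. Feeding BV to a heme oxygenase mutant asks which transcripts answer to added BV or to what the cell makes of it, which the feeding does not tell apart.

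Levels are in RPKM, a read count divided by gene length and by library size, and limma tested 13871 of the 17737 gene IDs. No source used here pairs these IDs with gene names, so genes are given by ID, without a name or a function, and HMOX1 was not looked up to check the strain labels. From the steps in which low values rise, the relative depth of the hmox1 libraries was 0.64 and 1.47 with BV and 0.76 and 0.59 without BV, where 1 is the median of all 20 libraries. Absolute depth is unknown. The 2 hmox1 libraries without BV were the least alike of the 10 pairs, with a median absolute log2 difference of 0.155 between them, against 0.0886 for the hmox1 pair with BV and 0.07 to 0.0845 elsewhere. The labels call the replicates biological without saying whether cultures were separate. The p-values rest on a spread per gene pooled over all 10 groups, not on that of the hmox1 libraries alone. This spread among libraries may be technical.

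BV moved a wide part of the transcriptome of hmox1, most of it by small amounts. Past an adjusted p of 0.05 and at least 2-fold, 522 genes rose (3.76% of those tested) and 495 fell (3.57%). In all 522 both libraries with BV lay above both without, an order found in 26.1% of tested genes. In all 495 both lay below, as in 45.8% of tested genes. The 522 and 495 were chosen for a large change in these same libraries, which all but fixes this order, so it is no further support. Rises reached further than falls. Among the 522 raised genes 123 rose at least 4-fold and 29 at least 8-fold, against 18 and 8 of the 495 lowered ones. At the adjusted p alone limma called 8079 genes (58.2%), 2848 higher (20.5%) and 5231 lower (37.7%), with a median log2 difference of -0.11 over all tested genes. This balance depended on scaling. With median-ratio library factors the calls were 3653 higher and 3988 lower, and 590 genes rose and 331 fell past 2-fold. With a pseudocount of 0.1 in place of 1 the counts past 2-fold were 791 and 824. RPKM is a share of the library, so fewer transcripts of a gene per cell and more of all others cannot be told apart.

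The counts past 2-fold were split by level of expression, on the log2(RPKM + 1) scale, which understates changes of weakly expressed genes. Of 6752 tested genes averaging under 5 RPKM over all 20 libraries, 279 rose (4.13%) and 65 fell (0.96%). Between 5 and 50 RPKM 197 of 5800 rose and 356 fell (6.14%), and between 50 and 500 RPKM 41 of 1095 rose and 74 fell (6.76%). Among the 224 genes at 500 RPKM or more 5 rose past 2-fold. With a pseudocount of 0.1 more genes rose than fell under 5 RPKM too, 522 (7.73%) against 270 (4%), and more fell than rose between 5 and 50 RPKM, 478 (8.24%) against 223. Most of the 20 libraries had no BV, so the level used for the split is mainly that without BV. This favours rises among weakly expressed genes and falls among stronger ones. The split was not repeated with median-ratio factors, which changed the counts past 2-fold. The 522 raised genes together held 3.29% and 3.28% of the RPKM sum in the libraries with BV, against 1.1% and 1.07% without BV. The 495 lowered genes held 1% and 0.98% with BV, against 2.54% and 2.52% without it. These genes were chosen in the same libraries, so the shares describe their size and test nothing.

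The largest rise was that of Cre08.g368850, at 548.36 and 474.90 RPKM in hmox1 with BV, against 5.6 and 4.94 without it (log2 difference 6.35, SE 0.45, adjusted p = 3.38e-07, limma). Cre02.g102050 was at 436.65 and 403.56 RPKM with BV, against 19.11 and 20.75 without it (4.33, SE 0.06, adjusted p = 8.57e-19). Both were higher in ho1C2 than in ho1C1 without BV. In ho1C2 Cre08.g368850 held 25.33 to 70.80 RPKM and Cre02.g102050 135.98 to 178.30 RPKM over the 6 libraries, dark and light alike, while ho1C1 stayed at 0.64 to 5.21 and 14.17 to 19.80.

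Another group of leading rises was low in every library without BV. Cre02.g089500 was at 40.82 and 56.70 RPKM in hmox1 with BV, against 0.44 and 0.14 without it (log2 difference 5.26, SE 0.15, adjusted p = 2.27e-14, limma). Over all 16 libraries without BV, of any strain and light, it reached at most 0.65 RPKM. Cre11.g468800 stood at 43.74 and 62.08 RPKM with BV, against 1.53 and 2.00 without it (4.27, SE 0.15, adjusted p = 3.24e-13). For g14305 the values were 91.78 and 114.16 RPKM with BV, against 6.71 and 4.42 without it (4.00, SE 0.14, adjusted p = 6.83e-13). For g9538 they were 23.05 and 33.06 RPKM, against 1.27 and 1.24 (3.67, SE 0.15, adjusted p = 1.1e-12). That the groups did not overlap in these 4 genes was a condition for naming them. Of the BV pair the library of lower relative depth (0.64) held the lower value in each of these 4 genes. It held the higher value for Cre08.g368850 and Cre02.g102050. The part of depth in this was not tested.

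A further pair of leading genes was well expressed without BV in dark cells of the complemented lines. Cre17.g700950 was at 299.70 and 306.02 RPKM in hmox1 with BV, against 23.82 and 17.78 without it (log2 difference 3.81, SE 0.09, adjusted p = 3.31e-15, limma), and at 87.44 to 102.93 RPKM in the complemented lines in the dark. At 4 h it held 31.02 and 32.84 RPKM in ho1C1 but 89.47 and 89.05 in ho1C2. Cre02.g084450 was at 51.11 and 57.50 RPKM with BV, against 3.37 and 3.38 without it (3.66, SE 0.09, adjusted p = 1.34e-15). In the dark the complemented lines held 47.88 to 51.22 RPKM of Cre02.g084450, close to its level in hmox1 with BV, and 3.78 to 8.44 RPKM at 4 h.

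**Figure D1:**
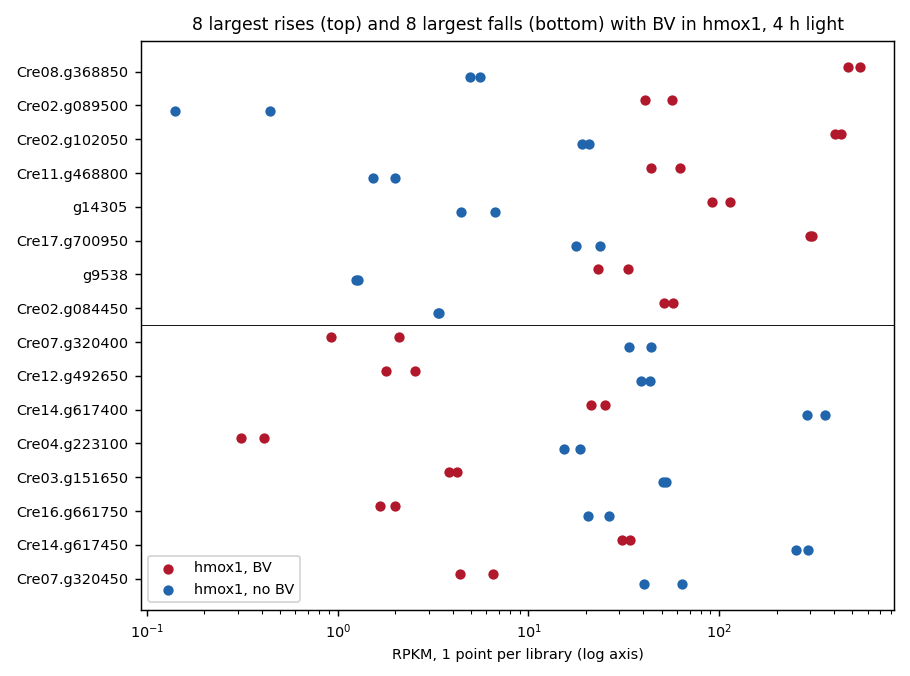
RPKM on a log axis in the 2 hmox1 libraries with BV (red) and the 2 without (blue) for the 8 largest rises (top) and 8 largest falls (bottom), 1 point per library. The red and blue points are apart in every row, as the rule for naming required. The margin was widest for Cre08.g368850 (548.36 and 474.90 against 5.6 and 4.94 RPKM) and Cre02.g089500.

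For all 8 of the largest falls, the complemented lines held more of the transcript in each library at 4 h of light than in the dark. Cre07.g320400 was at 0.92 and 2.09 RPKM in hmox1 with BV, against 43.81 and 33.79 without it (log2 difference -4.02, SE 0.24, adjusted p = 2.24e-08, limma). Its neighbour Cre07.g320450 was at 4.40 and 6.5 RPKM, against 64.02 and 40.40 (-3.03, SE 0.26, adjusted p = 9.04e-07). In the complemented lines Cre07.g320400 held 0.25 to 1.75 RPKM in darkness, 590.76 to 709.06 after 0.5 h and 6.92 to 19.35 at 4 h, so its level in hmox1 with BV lay near the dark level of those lines. Cre12.g492650 had the same course, with 0.16 to 0.33 RPKM in the dark and 94.83 to 153.56 at 0.5 h. It was at 1.79 and 2.53 RPKM in hmox1 with BV, against 38.98 and 43.44 without it (-3.75, SE 0.1, adjusted p = 3.69e-15).

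The adjacent genes Cre14.g617400 and Cre14.g617450 fell together from high levels. Cre14.g617400 was at 21.29 and 25.20 RPKM in hmox1 with BV, against 359.45 and 289.91 without it (log2 difference -3.74, SE 0.12, adjusted p = 1.02e-13, limma). Cre14.g617450 was at 30.92 and 33.98 RPKM, against 291.63 and 253.54 (-3.03, SE 0.07, adjusted p = 1.22e-15). Without BV hmox1 held more of both than any other group did. With BV it lay below 4A+ without BV, which held 112.17 and 115.92 RPKM of Cre14.g617400 and 102.24 and 106.21 of Cre14.g617450.

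Other leading falls were of genes that in ho1C1 were near 0 in the dark and at 0.5 h and high at 4 h. Cre03.g151650 was at 3.82 and 4.20 RPKM in hmox1 with BV, against 52.82 and 50.51 without it (log2 difference -3.39, SE 0.08, adjusted p = 1.08e-15, limma). Cre16.g661750 was at 1.99 and 1.67 RPKM, against 26.34 and 20.50 (-3.10, SE 0.12, adjusted p = 1.65e-13). In ho1C1 Cre03.g151650 was at 0.02 to 0.11 RPKM in darkness, 0.56 to 0.65 after 0.5 h and 42.44 to 45.48 at 4 h, and Cre16.g661750 was at 17.74 and 18.21 RPKM at 4 h and at most 0.03 before. Cre04.g223100 shared this course, with 20.33 and 20.96 RPKM in ho1C1 at 4 h. It was at 0.41 and 0.31 RPKM in hmox1 with BV, against 18.72 and 15.34 without it (-3.72, SE 0.09, adjusted p = 1.28e-15), and 4A+ held 128 and 119.61 RPKM with BV, against 1753.88 and 1727.62 without it.

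Among abundant transcripts the changes were smaller in fold and larger in amount. Cre06.g282800 was at 2074.20 and 1904.51 RPKM in hmox1 with BV, against 891.08 and 855.29 without it (log2 difference 1.19, SE 0.05, adjusted p = 7.31e-13, limma), and at 2912.46 to 3124.40 RPKM in the complemented lines in the dark. Cre09.g396100 was at 1377.03 and 1437.90 RPKM with BV, against 323.19 and 321.66 without it (2.12, SE 0.06, adjusted p = 4.33e-15). No library without BV held more than 549.25 RPKM of Cre09.g396100, and 4A+ reached only 213.17 and 221.92 RPKM with BV, against 59.98 and 59.56 without it. Cre03.g156900 was at 1910.66 and 1677.09 RPKM, against 966.63 and 817.31 (1.01, SE 0.07, adjusted p = 2.78e-10). Cre06.g283950 was at 1762.15 and 1659.96 RPKM, against 949.58 and 704.05 (1.06, SE 0.1, adjusted p = 9.61e-08). Unlike Cre06.g282800, Cre06.g283950 was low in the dark in the complemented lines (108.11 to 163.39 RPKM) and high at 4 h (804.36 to 1192.41 RPKM). Of these abundant transcripts that rose with BV, Cre06.g282800 was highest in the dark in those lines. The group means of Cre03.g156900, Cre06.g283950 and Cre09.g396100 were highest at 4 h in both lines.

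The largest falls in amount, beside Cre14.g617400, were those of Cre06.g252650, g18140 and Cre10.g452800. Cre06.g252650 was at 300 and 278.29 RPKM in hmox1 with BV, against 785.79 and 613.16 without it (log2 difference -1.26, SE 0.08, adjusted p = 1.5e-10, limma). For g18140 the values were 222.46 and 236.57 RPKM with BV, against 563.40 and 581.09 without it (-1.31, SE 0.1, adjusted p = 3.84e-09). For Cre10.g452800 they were 186.86 and 190.23 RPKM, against 506.42 and 532.45 (-1.46, SE 0.05, adjusted p = 1.95e-14). The strains differed for g18140, which held 741.80 and 797.42 RPKM in 4A+ without BV but at most 95.58 in the complemented lines.

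A stricter group was formed from levels alone, after values were seen, and is described with no test. It holds genes of the 2-fold lists for which all 4 libraries with BV, of both strains, lay at least 2-fold beyond each of the 16 libraries without BV, at 5 RPKM or more on the higher side. There were 37 such genes among the 522 raised (7.09%) and 70 among the 495 lowered (14.1%). For the 37, the median over genes of the group mean was 25.5 RPKM in hmox1 with BV, against 2.42 without it, and 31.6 RPKM in 4A+ with BV, against 0.82 without it. In 5 of the 37 no library without BV reached 1 RPKM. With BV g9535 averaged 51.36 RPKM in hmox1, above the 27.79 RPKM in 4A+, while Cre06.g284200 averaged 26.44 RPKM in hmox1, below the 124.2 RPKM in 4A+. On the log2 scale the response was smaller in hmox1 than in 4A+ for 33 of the 37, g9535 and Cre06.g284200 among them. A smaller log2 response thus did not always mean a lower level with BV. This difference was called in 23, and called the other way in 1, Cre17.g700950. Of all tested genes 25.5% were called lower in this difference and 8.04% higher. Both the 37 and the 70 were chosen with the 4A+ libraries that enter this difference. Over the 70 lowered genes that median was 6.2 RPKM in hmox1 with BV, against 17.73 without it. The difference between strains was called in 24, each falling less in hmox1, a direction called in 8.04% of all tested genes. Cre02.g085950, the most abundant in hmox1 without BV, lay between 36.80 and 41.24 RPKM in the 4 BV libraries, against 87.87 to 142.11 in the 16 without. The lowered group depended on scaling and on 1 library, with 23 genes under median-ratio factors and 112 without replicate 1 of hmox1 without BV.

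Set against the light course, the genes raised by BV were mostly those lower in light than in the dark, and many of the lowered ones were higher in light. The median level of the 522 raised genes was 10.19 and 10.79 RPKM in hmox1 with BV, against 2.33 and 2.245 without it. The genes were chosen in these hmox1 libraries, which favours a high level with BV. In ho1C1 the same genes had medians of 4.515 and 4.55 RPKM in the dark, 1.855 and 2.035 at 0.5 h and 2.28 and 2.335 at 4 h. In ho1C2 they had 5.375 and 5.555 RPKM in the dark, 2.375 and 2.325 at 0.5 h and 2.74 and 2.845 at 4 h. Of the 522, 343 (65.7%) were called lower at 4 h than in the dark in both lines, against 39.4% of all tested genes, and 40 (7.7%) were called higher, against 20.6%. At 0.5 h 362 (69.3%) were called lower than in the dark in both lines, against 53.9% of all tested genes.

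For the 495 lowered genes the order was turned round. Their median was 6.65 and 6.52 RPKM in hmox1 with BV, against 17.72 and 17.4 without it. With BV it was thus below the dark medians of ho1C1 (11.63 and 11.19) and ho1C2 (11.64 and 11.29). The choice of these genes in the hmox1 libraries favours a low level with BV. Called higher at 4 h than in the dark in both lines were 229 (46.3%), against 20.6% of all tested genes, and called lower were 69 (13.9%), against 39.4%. At 0.5 h 224 (45.3%) were called higher, against 20.1%. The light comparisons use no library of the BV comparison, and those at 0.5 h and 4 h share their dark libraries.

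**Figure D2:**
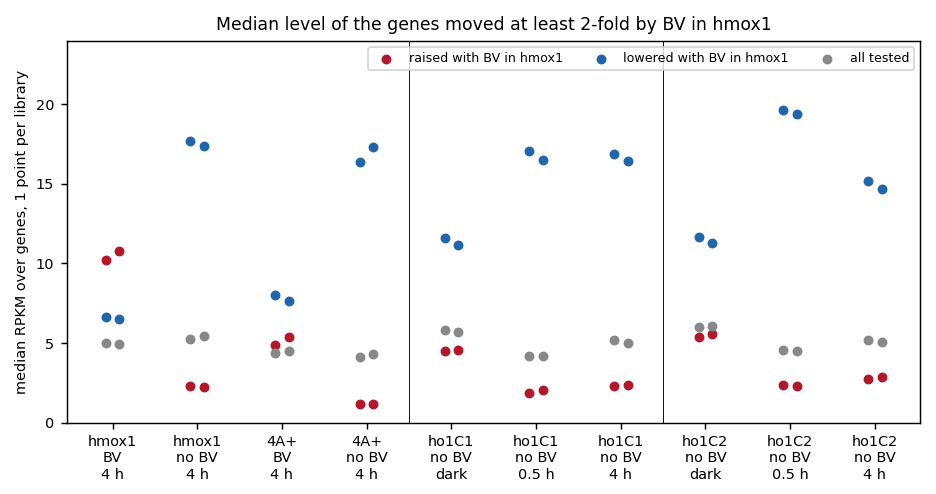
Median RPKM over the genes raised (red, 522) or lowered (blue, 495) at least 2-fold by BV in hmox1 and over all tested genes (grey), 1 point per library, in 10 groups of strain, BV and light. Raised genes stood at 10.19 and 10.79 RPKM with BV in hmox1 and at no more than 5.555 RPKM in any other group, and lowered genes were lowest in the 4 libraries with BV. The genes were chosen in the hmox1 libraries, which favours extreme medians there.

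The wild type offers the same treatment in libraries that share no control with hmox1. Of the 522 genes raised in hmox1, 431 (82.6%) were called higher with BV in 4A+, against 32.1% of all tested genes, 13 were called lower and 78 were not called, and their median log2 difference in 4A+ was 1.19. At least 2-fold higher in 4A+ were 291 of the 522, against 5.22% of all tested genes, and at least 2-fold lower were 262 of the 495 lowered genes, against 3.43%. Of the 495 lowered genes 433 (87.5%) were called lower in 4A+, against 27.4% of all tested genes, 16 were called higher and 46 were not called, with a median of -1.04. The difference between the responses was tested directly and called for 33.6% of all tested genes. It reached 2-fold upward in 127 of the raised genes, against 1.39% of all tested genes, and 2-fold downward in 62 of the lowered genes, against 2.95%. Among the raised genes 242 (46.4%) were called as responding more upward in hmox1, against 8.04% of all tested genes, and 114 (21.8%) as responding less, against 25.5%. Among the lowered genes 198 (40%) were called as falling further in hmox1, against 25.5% of all tested genes, and 53 (10.7%) as falling less, near the 8.04% of all tested genes called in that direction. With median-ratio factors 331 genes fell past 2-fold, and 104 of these (31.4%) were called as falling further, against 16.3% of all tested genes. The genes were chosen for their change in hmox1, which favours a larger response there.

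**Figure D3:**
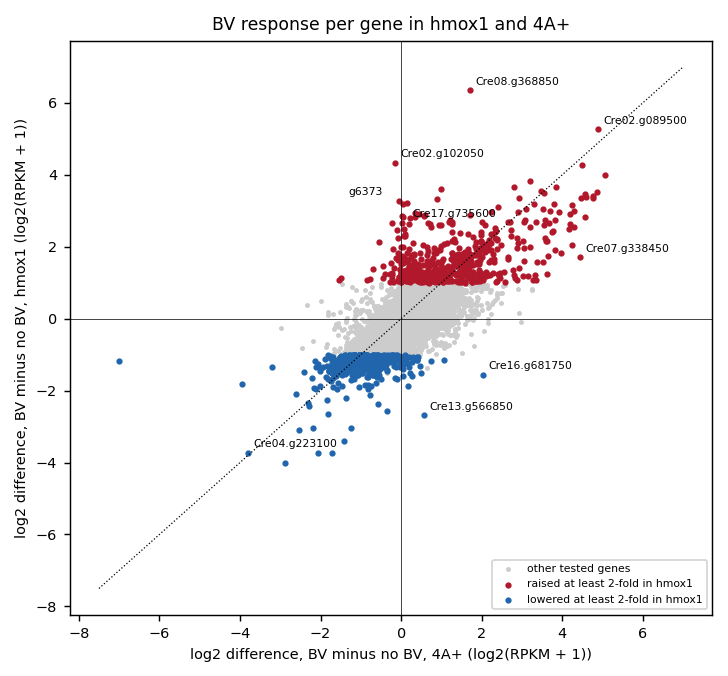
The log2 difference with BV in hmox1 (vertical) against that in 4A+ (horizontal) for each tested gene, on the log2(RPKM + 1) scale, with genes raised (red) or lowered (blue) at least 2-fold in hmox1 and a dotted line of equal response. Most red points lie at positive and most blue points at negative values in 4A+, while Cre08.g368850 and Cre02.g102050 lie far above the line and Cre16.g681750 far below it.

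Some genes rose with BV in hmox1 and were not called higher in 4A+. Among the raised genes 89 (17%) had a called larger response in hmox1 and were not called higher in 4A+, both of which held for 6.16% of all tested genes. The raised genes were chosen in hmox1 libraries that enter this difference, which favours the larger share. Over the 89 genes the median level was 5.85 RPKM in hmox1 with BV, against 1.18 without it, and 0.63 RPKM in 4A+ with BV, against 0.585 without it. Cre02.g102050 was the clearest of the 89, at 3.08 and 3.02 RPKM in 4A+ with BV, against 3.57 and 3.43 without it, a small called fall (difference between strains 4.48, adjusted p = 2.07e-16, limma). For g6373 the values were 28.94 and 26.26 RPKM in hmox1 with BV, against 1.90 and 1.98 without it, and 0.24 and 0.26 RPKM in 4A+ with BV, against 0.31 and 0.28 without it (difference 3.33, adjusted p = 5.72e-12). Cre08.g368850 rose in both strains, reaching only 2.73 and 2.64 RPKM in 4A+ with BV, against 0.03 and 0.23 without it (difference 4.64, adjusted p = 0.000246, but 0.0559 with a pseudocount of 0.1).

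Among the lowered genes 59 (11.9%) had a called further fall in hmox1 and were not called lower in 4A+. Over all tested genes both held for 22.8%, a larger share. This share was not recomputed with median-ratio factors. With them 16.3% of all tested genes were called lower in the difference between strains, against 25.5% in the main fit. Cre13.g566850 was at 6.39 and 4.68 RPKM in hmox1 with BV, against 44.59 and 36.67 without it, and at 7.78 and 6.90 RPKM in 4A+ with BV, against 4.58 and 4.64 without it (difference -3.25, adjusted p = 9.92e-11, limma). It was called higher in 4A+ (log2 difference 0.57, adjusted p = 0.000499). In hmox1 with BV its level was near those of the complemented lines at 4 h (4.22 to 6.06 RPKM), and in hmox1 without BV near theirs at 0.5 h (36.89 to 41.55 RPKM). Cre07.g338450 rose in both strains, more so in 4A+. It was at 66.46 and 68.50 RPKM in hmox1 with BV, against 20.38 and 19.47 without it, and at 127.26 and 131.19 RPKM in 4A+ with BV, against 4.87 and 5.09 without it (difference -2.73, adjusted p = 2e-13).

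Of the genes called at 2-fold in hmox1, 4 moved at least 2-fold in the opposite direction in 4A+, and they are named here after their values were seen. Cre16.g681750 was at 4.85 and 5.45 RPKM in hmox1 with BV, against 16.62 and 17.54 without it, and at 15.24 and 13.48 RPKM in 4A+ with BV, against 2.86 and 2.63 without it (difference -3.59, adjusted p = 4.89e-13, limma). Cre06.g298750 likewise fell in hmox1, to 11.80 and 14.81 RPKM against 30.23 and 30.55 without BV, and rose in 4A+, to 37.54 and 34.79 RPKM against 16.37 and 17.12. In the other direction Cre07.g344400 rose to 206.67 and 199.40 RPKM in hmox1 with BV, against 91.33 and 100.73 without it, and fell to 182.51 and 183.85 RPKM in 4A+ with BV, against 529.23 and 533.56 without it. For g6310 hmox1 held 24.67 and 22.40 RPKM with BV, against 9.69 and 10.60 without it, and 4A+ held 16.89 and 16.80 RPKM with BV, against 48.30 and 50.50 without it. In all 4 genes the order of the strains was turned over between the libraries with BV and those without.

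**Figure D4:**
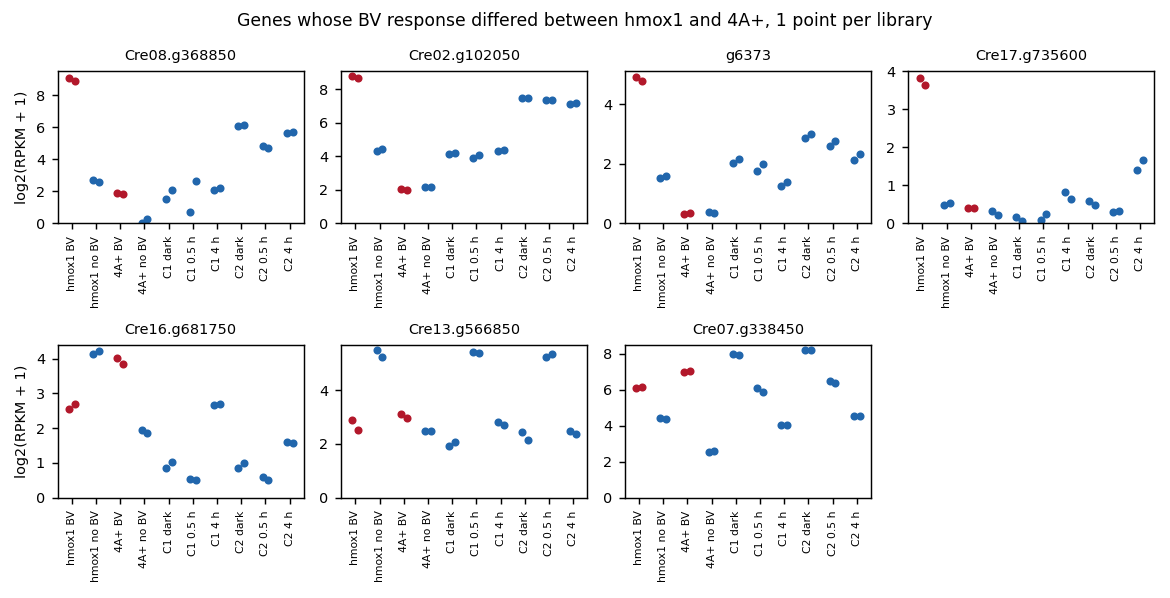
Levels of 7 genes whose BV response differed between hmox1 and 4A+, as log2(RPKM + 1), 1 point per library, with BV in red and without in blue, and C1 and C2 standing for ho1C1 and ho1C2. Cre08.g368850 and Cre02.g102050 were highest in hmox1 with BV (474.90 to 548.36 and 403.56 to 436.65 RPKM) and next highest in ho1C2, and Cre13.g566850 was high in hmox1 without BV and at 0.5 h in both complemented lines.

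Some genes that moved together lie side by side in the RefSeq gene order of assembly Chlamydomonas_reinhardtii_v5.5. Of the 838 genes that met the rule for naming, 639 are in that order. They form 49 neighbouring pairs with the same direction and 7 with opposite directions, and 3 runs of 3 or more genes in each direction. How often neighbours among all tested genes share a direction was not counted. These counts therefore do not show that genes moved by BV lie together more than other genes do. No source used here gives the genome build of these values or how reads of overlapping neighbours were counted, so neighbours that share reads cannot be set apart.

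The longest run, on chromosome 8, rose alike in both strains. Cre08.g365050 was at 10.62 and 14.10 RPKM in hmox1 with BV, against 1.81 and 1.77 without it, and Cre08.g365100 at 14.58 and 18.27 RPKM, against 1.22 and 0.63. Cre08.g365150 was at 10.08 and 12.80 RPKM, against 0.00 and 0.19, and Cre08.g365200 at 5.01 and 7.05 RPKM, against 0.96 and 1.54. The log2 differences were 2.25, 3.19, 3.5 and 1.64 (SE 0.2, 0.14, 0.12 and 0.14, all adjusted p of 1.68e-07 or less, limma). In 4A+ they were 2.32, 3.28, 3.55 and 1.96, and no difference between the strains was called, the adjusted p being 0.24 to 0.876. The 4 genes stayed at 2.90 RPKM or less in each of the 16 libraries without BV.

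A run on chromosome 13 was raised by BV and stood higher at 0.5 h of light than in the dark. Cre13.g569400 was at 44.86 and 54.19 RPKM in hmox1 with BV, against 4.79 and 2.88 without it (log2 difference 3.41, SE 0.13, adjusted p = 1.1e-12, limma), and at 122.72 and 109.97 RPKM in 4A+ with BV, against 3.24 and 3.44 without it. Cre13.g569450 was at 19.79 and 22.09 RPKM in hmox1 with BV, against 0.87 and 0.98 without it (3.51, SE 0.08, adjusted p = 1.28e-15). Cre13.g569500 was at 38.96 and 48.63 RPKM, against 22.73 and 14.96 (1.19, SE 0.21, adjusted p = 0.000259). All 3 rose less in hmox1 than in 4A+, by 1.35, 1.35 and 1.83 on the log2 scale (adjusted p = 3.22e-05, 9.13e-08 and 0.000374). In the complemented lines Cre13.g569400 was at 2.19 to 3.74 RPKM in darkness, 20.88 to 30.59 after 0.5 h and 1.91 to 2.5 at 4 h. Cre13.g569500 at 0.5 h (39.99 to 55.58 RPKM) was about as high there as in hmox1 with BV.

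The third raised run, on chromosome 17, was not uniform between strains. Cre17.g735500 and Cre17.g735550 rose alike in hmox1 (log2 differences 1.76 and 1.78, SE 0.09 and 0.1, adjusted p = 2.11e-11 and 7.87e-11, limma) and in 4A+ (1.70 and 1.82). Their neighbour Cre17.g735600 was at 13.14 and 11.51 RPKM in hmox1 with BV, against 0.40 and 0.46 without it, but at 0.32 and 0.33 RPKM in 4A+ with BV, against 0.25 and 0.16 without it (difference 3.08, adjusted p = 6.17e-12).

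Falling runs were 3 genes long. On chromosome 7, Cre07.g320500 lies next to Cre07.g320400 and Cre07.g320450 and fell less, to 2.43 and 2.87 RPKM in hmox1 with BV, against 6.16 and 7.32 without it (log2 difference -1.08, SE 0.1, adjusted p = 3.55e-08, limma). It showed no called change in 4A+ (-0.04, adjusted p = 0.77). On chromosome 16, Cre16.g659800, Cre16.g659850 and Cre16.g659900 fell by 1.21, 1.28 and 1.18 on the log2 scale in hmox1 (SE 0.09 each, adjusted p of 2.62e-09 or less) and by 0.78, 0.81 and 0.70 in 4A+. Cre16.g659900 was the most abundant of them, at 22.64 and 18.63 RPKM in hmox1 with BV, against 53.68 and 42.70 without it. In the other run on that chromosome, Cre16.g676600 was at 17.26 and 19.51 RPKM with BV, against 63.61 and 57.83 without it (-1.67, SE 0.09, adjusted p = 1.87e-11). Cre16.g676550 and Cre16.g676537 fell by 1.12 and 1.13 (SE 0.08 and 0.1, adjusted p = 8.52e-10 and 2.95e-08).

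**Figure D5:**
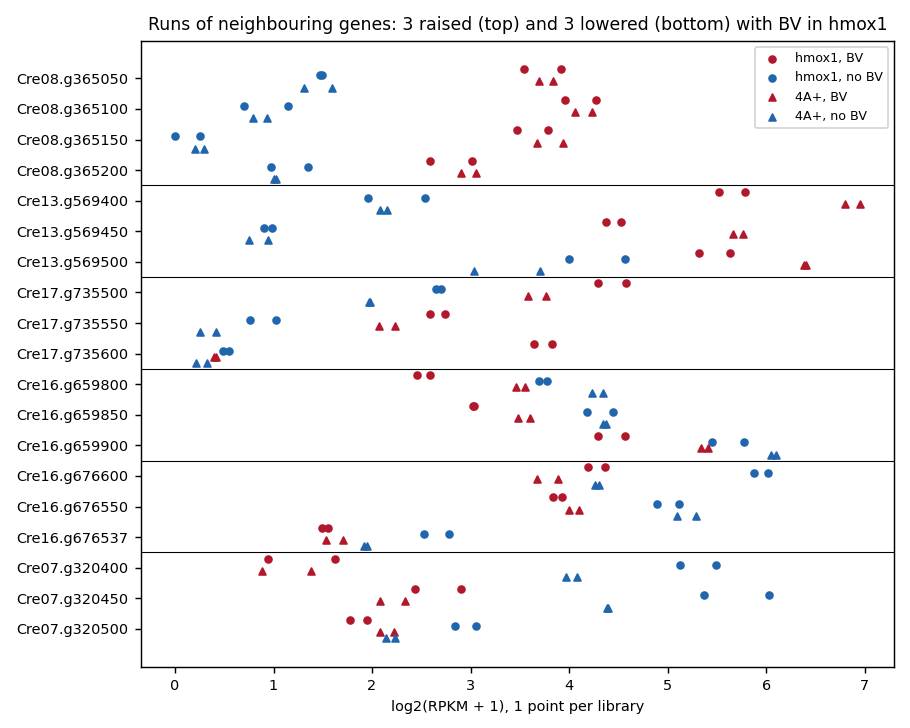
Levels as log2(RPKM + 1) of the genes in 6 runs of neighbouring genes, with hmox1 as circles, 4A+ as triangles, BV in red and no BV in blue, 1 point per library, and lines between runs. In the chromosome 8 run the red points of both strains overlap, between 5.01 and 18.27 RPKM, whereas Cre17.g735600 stood at 13.14 and 11.51 RPKM with BV in hmox1 and at 0.32 and 0.33 in 4A+.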

How the data were processed

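STAR 2.3.0 and HTSeq are named, per the submitters' processing notes. No source used here gives their settings, the build, the annotation or whether strand was used. The deposited values were taken as RPKM computed by the authors, as inferred from their steps and column sums, since the deposited header names no unit. The test took genes that reached 1 RPKM in 2 or more libraries and was run on log2(RPKM + 1) with limma 3.58.1 in R 4.3.3 (trend, robust), 1 mean per group over all 20 libraries (10 residual degrees of freedom), with Benjamini-Hochberg adjustment over all 13871 genes and a threshold of 0.05. This scale understates changes of weakly expressed genes. The test was checked on simulated data drawn with 1 spread per gene for every group. The wider spread of hmox1 without BV was thus not simulated. Relative depth was fitted on 289 weakly expressed genes as the factors that make their values whole multiples of a step.

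Named genes met an adjusted p under 0.05, 2-fold, a mean of 5 RPKM where higher and libraries that do not overlap. Of these 838 the rule takes the 8 largest rises and falls by log2, the 4 largest by RPKM, the 3 largest differences from 4A+ in each direction and the longest runs of neighbours. That gave 44 genes, and 3 further ones that responded in opposite directions were added. Comparison, lists and rule were chosen with earlier results of these data known. RefSeq v5.5 matched 11713 of 17737 IDs (66%) and held 0 gene symbols, so pathway lists are not analysed here. Alternatives were a pseudocount of 0.1, no filter, median-ratio scaling, a fit of the compared strains alone, a replicate block and leaving out each library.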

Additional observations from a re-analysis of the deposited data

Results flagged for a closer look

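The response to BV differed between hmox1 and 4A+, by limma's test of the difference, for 4655 genes and for 35 of the 47 genes named above. Values are the log2 response of hmox1 minus that of 4A+.

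Upward, the difference was 4.64 for Cre08.g368850, 4.48 for Cre02.g102050, 3.33 for g6373 and 3.08 for Cre17.g735600. It was 2.64 for g6310 and 2.61 for Cre07.g344400, which rose in hmox1 and fell in 4A+. Smaller upward differences were 0.84 for Cre02.g084450, 0.62 for Cre17.g700950 and 0.28 for Cre09.g396100, all of which rose in both strains. For g18140 (0.42) and Cre10.g452800 (0.34) hmox1 fell less.

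Downward differences among genes that rose in both strains were -2.73 for Cre07.g338450, -1.83 for Cre13.g569500, -1.35 for Cre13.g569400, -1.35 for Cre13.g569450, -1.24 for Cre06.g282800, -1.06 for g14305, -0.46 for Cre03.g156900 and -0.46 for Cre06.g283950. Among genes that fell in hmox1 and rose in 4A+ they were -3.59 for Cre16.g681750, -3.25 for Cre13.g566850 and -2.21 for Cre06.g298750.

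Genes that fell further in hmox1 were Cre12.g492650 (-2.04), Cre03.g151650 (-1.97), Cre14.g617450 (-1.78), Cre14.g617400 (-1.69), Cre16.g676600 (-1.17), Cre07.g320400 (-1.13), Cre07.g320500 (-1.05) and Cre16.g676537 (-0.81). So did Cre16.g661750 (-0.57), Cre16.g659900 (-0.48), Cre16.g659850 (-0.47), Cre06.g252650 (-0.44) and Cre16.g659800 (-0.43). The call of these 5, and of Cre07.g320400 and Cre06.g283950, was lost under median-ratio scaling.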

How the results depend on the processing

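All 423 recomputed BV responses of the 47 named genes in hmox1 kept their direction and stayed past the threshold. Of the recomputed differences from 4A+, 572 kept their side of the threshold, 33 lost the call, 5 gained it and 1 changed sign, that of Cre04.g223100, which was 0.08 and became -1.41 with a pseudocount of 0.1. That pseudocount also gave 791 raised and 824 lowered genes past 2-fold in hmox1. Leaving out each library in turn gave 6816 to 8038 called genes in hmox1, 496 to 549 raised and 498 to 541 lowered past 2-fold, 7010 to 7363 called genes in 4A+ and 3773 to 5590 called differences between strains. Where 1 library of a group is left, it is assumed to vary like the other groups. A fit of the hmox1 libraries alone called 5904 genes. Same-numbered hmox1 libraries did not deviate together (correlation -0.002 across genes), and a fit with the replicate block called 8317 genes, with 522 raised and 495 lowered past 2-fold. Gene lists by name had no annotated members, so their alternatives were not run. Differences at low levels are limited by the shallower hmox1 libraries, 3 of which lay below the median depth.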
